A study of Danio rerio with 20 samples.

Results

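The effect of losing glo1 was measured in zebrafish larvae that already lacked aldh3a1. The comparison set 5 libraries of the genotype labelled DKO, with glo1 and aldh3a1 both knocked out, against 5 libraries of the genotype labelled ALDH3A1KO, with aldh3a1 alone knocked out. It thus used 10 of the 20 libraries of the series and every gene with enough counts, and it left the wild type libraries out. Both genotypes were in the Tg(fli1:EGFP) line, in which a promoter active in endothelial cells drives a green fluorescent protein, the knockouts were made with CRISPR/Cas9, and whole larvae were the source of RNA. Both genotypes lack aldh3a1, so the comparison concerns glo1 loss on that shared background, together with anything else that differs between the lines. The remaining 10 libraries, GLO1KO and WT with 5 each, enter 1 comparison further on. The sources used here do not state the age of the larvae or the number of founders behind each knockout.

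Methylglyoxal is a reactive dicarbonyl that arises mainly as a by-product of glycolysis and modifies arginine residues of proteins. The glyoxalase system removes it: glyoxalase 1, encoded by glo1, converts its glutathione adduct to S-lactoylglutathione, and glyoxalase 2, encoded by hagh, releases lactate. Aldehyde dehydrogenases such as the product of aldh3a1 oxidise aldehydes to acids, and reductases offer a further route of disposal. The title of the series names a methylglyoxal adduct, small vessels, glucose metabolism and the proteasome, and the lists of genes described here cover these subjects as well as the tissues of the larva.

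The 10 libraries held 35092716 to 36071304 counts each. CPM values are counts scaled to a common library size, and a gene is said here to have risen or fallen, or to be called, where edgeR's quasi-likelihood test gave a Benjamini-Hochberg adjusted p under 0.05. Among 21378 genes tested, 4064 (19%) were called. DKO libraries were higher for 2172 genes (10.2%) and lower for 1892 (8.85%). Past a log2 change of 1, calls were mostly upward, with 398 genes higher (1.86%) and 74 lower (0.346%). All DKO libraries lay above all ALDH3A1KO libraries for 1635 of the genes tested (7.65%), called or not, and below them for 1409 (6.59%). Principal component 1, with 35.8% of the variance, ran from 19.3 to 42 in DKO and from -40.3 to -19.9 in ALDH3A1KO, which kept the genotypes apart. The outermost library of each genotype was its replicate 3. Without DKO replicate 3 the counts were 1511 higher and 1182 lower, and without replicate 3 of both genotypes they were 1356 higher and 1019 lower. Scaling by total counts alone gave 1772 higher and 2880 lower, so that 38.1% of calls were upward in place of 53.4%, and it shifted the median of all genes from 0.01 to -0.05 on the log2 scale.

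**Figure D1:**
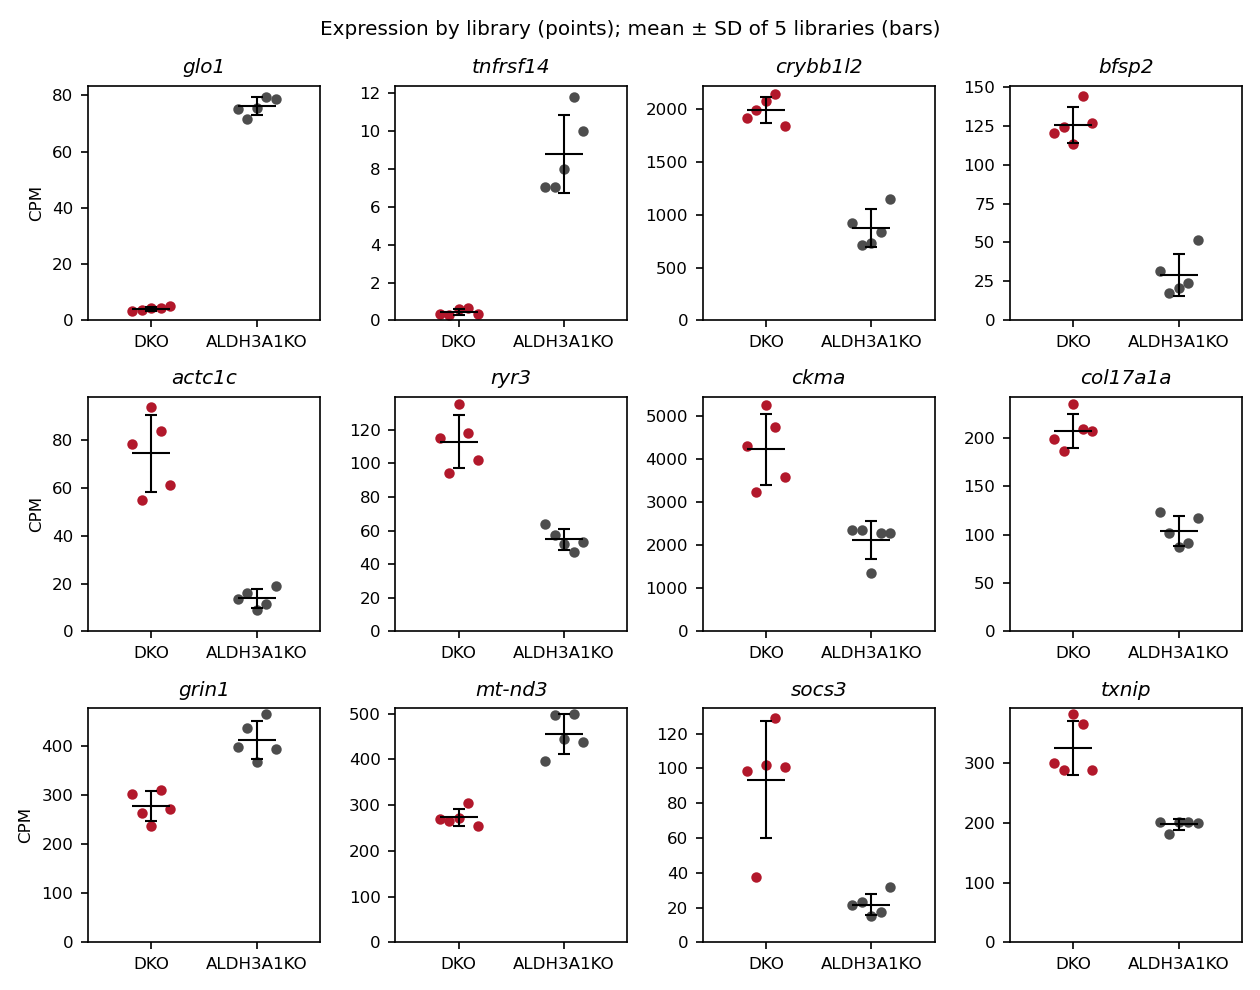
CPM of 12 genes in each library (points), with the mean and SD of 5 libraries (bars), DKO left of ALDH3A1KO; each panel has its own axis from 0. The 12 genes show no overlap between the genotypes; glo1, tnfrsf14, grin1 and mt-nd3 are lower in DKO and the other 8 are higher.

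The targeted transcript was low in every DKO library. glo1 was at 3.29, 3.85, 4.32, 4.31 and 5.22 CPM in DKO replicates 1 to 5, against 75.1, 71.7, 75.4, 79.5 and 78.8 CPM in ALDH3A1KO replicates 1 to 5. All 5 DKO libraries lay far below all 5 ALDH3A1KO libraries, and the log2 fold change was -4.18 (SE 0.1, adjusted p = 2.48e-15). The aldh3a1 transcript was not analysed here, so the knockout that the genotypes share has no such check. The other 5 measured genes of the glyoxalase pathway, hagh among them, changed by -0.06 to 0.1 on the log2 scale and none passed the test (smallest adjusted p = 0.463).

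Among the enzymes that handle other aldehydes, 4 of 19 measured aldehyde dehydrogenase genes rose (21.1%) and none fell, with a median log2 change of 0.15. Over all genes tested, 10.2% rose and 8.85% fell. Over the 29 genes of dicarbonyl defence 5 rose, and 3 rose when DKO replicate 3 or 4 or ALDH3A1KO replicate 1 or 3 was left out. The aldehyde dehydrogenases named here act in amino acid breakdown: aldh6a1 rose by 0.31 (SE 0.07, adjusted p = 0.00331), aldh4a1 by 0.49 (SE 0.11, adjusted p = 0.00357) and aldh7a1 by 0.28 (SE 0.07, adjusted p = 0.00756). aldh6a1 had 212, 211, 235, 232 and 210 CPM in DKO replicates 1 to 5, against 192, 178, 154, 177 and 187 CPM in ALDH3A1KO replicates 1 to 5, with no overlap. cbr1, a carbonyl reductase, was lower, at 5.63, 11.9, 8.49, 6.64 and 6.65 CPM in DKO, against 16.4, 16.4, 13.4, 22.8 and 13.4 CPM in ALDH3A1KO. Its log2 fold change was -1.07 (SE 0.21, adjusted p = 0.0049). It was among the 15 largest falls of called genes with no overlap, a mean of at least 5 CPM and no clone name.

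Glutathione and Nrf2 target genes, which supply the cofactor of glyoxalase 1 and answer electrophile stress, gave 7 higher and 3 lower of 63 measured (11.1% and 4.76%), close to the shares over all genes. Without DKO replicate 3 there were 4 higher, and 1 was lower without DKO replicate 1 or 4 or ALDH3A1KO replicate 4 or 5. gstp1.1, a glutathione transferase, rose by 2.08 (SE 0.32, adjusted p = 0.000297) from a low level, with 0.873 to 2.65 CPM in DKO, against 0.35 to 0.511 CPM in ALDH3A1KO. prdx1 (ENSDARG00000025350), a peroxiredoxin, averaged 240 ± 12.7 CPM in DKO and 174 ± 10.3 CPM in ALDH3A1KO (SD, n = 5 each; log2 fold change 0.46, edgeR adjusted p = 5.65e-05). keap1, the inhibitor of Nrf2, rose by 0.47 (adjusted p = 0.000384), and mgst1 (ENSDARG00000022165), a microsomal transferase, by 0.46 (adjusted p = 0.0124). slc7a11, the cystine importer, rose by 0.51 (adjusted p = 0.0178), but its adjusted p was 0.0519 without DKO replicate 3. tkt, the transketolase of the pentose phosphate pathway, fell by 0.31 (SE 0.06, adjusted p = 0.00207), and mgst2, another microsomal transferase, fell by 0.83 (SE 0.14, adjusted p = 0.00051).

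The lens had the highest median of the 30 lists. Of 78 measured lens genes, 61 rose (78.2%), 1 fell and 16 did not pass, with a median log2 change of 0.86 against 0.01 over all genes tested. Per library, the list lay at 0.76, 0.81, 0.74, 0.94 and 0.73 in DKO replicates 1 to 5, and at 0.04, -0.25, -0.19, 0.1 and 0.31 in ALDH3A1KO replicates 1 to 5, as the mean over members of log2(CPM + 0.5) relative to the ALDH3A1KO mean. The lowest DKO library was thus well above the highest ALDH3A1KO library. Without replicate 3 of both genotypes, 54 of 77 rose. RNA came from whole larvae, so more or fewer cells of a tissue and more or less RNA per cell cannot be told apart, here or in the lists that follow.

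Beta crystallins, structural proteins of the lens fibre, rose for 13 of 14 genes, with a median of 1.24. crybb1l2 had 1913, 1993, 2078, 2143 and 1835 CPM in DKO replicates 1 to 5, against 923, 717, 729, 838 and 1151 CPM in ALDH3A1KO replicates 1 to 5. The DKO libraries were all above the ALDH3A1KO libraries (log2 fold change 1.19, SE 0.11, adjusted p = 1.24e-05). cryba2 (ENSDARG00000041925) and cryba4 each rose by 1.24. Summed over the 14 genes, beta crystallins took 9452 to 11326 CPM in DKO and 3312 to 5796 CPM in ALDH3A1KO.

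Gamma crystallins, which pack densely in the lens, rose for 27 of 33 genes, with a median of 0.83 and a sum of 11836 to 13591 CPM in DKO, against 5861 to 9560 CPM in ALDH3A1KO. crygm2d13 averaged 933 ± 68.2 CPM in DKO and 401 ± 69.4 CPM in ALDH3A1KO (SD, n = 5 each; log2 fold change 1.22, edgeR adjusted p = 1.73e-06). crygmx rose by 0.83, crygmxl2 by 1.24 and crygm2d10 by 0.73. crygm5 was among the 15 largest rises of called genes with no overlap, a mean of at least 5 CPM and no clone name. It had 14.7 to 18.3 CPM in DKO, against 1.77 to 5.45 CPM in ALDH3A1KO (log2 fold change 2.25, SE 0.22, adjusted p = 4.12e-05). crybgx, a relative of this superfamily, rose by 1.87 (SE 0.28, adjusted p = 0.00261). Crystallin paralogs are alike in sequence, so reads may be shared among them and values of single members are uncertain.

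Of 2 measured alpha crystallins, 1 rose and 1 did not pass (log2 change -0.61). The riser was cryaa, the small heat shock protein that keeps crystallins soluble. cryaa averaged 46.2 ± 9.76 CPM in DKO and 20.8 ± 3.23 CPM in ALDH3A1KO (SD, n = 5 each). By edgeR's test it rose by 1.15 (SE 0.15, adjusted p = 0.00032), and the libraries of the genotypes did not overlap.

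Genes for the structure of lens fibres rose for 19 of 20 measured, with a median of 1.04. bfsp2 and bfsp1 encode the partners of the beaded filament, a cytoskeleton particular to lens fibres. bfsp2 was at 120, 124, 113, 144 and 127 CPM in DKO replicates 1 to 5, against 32, 17.4, 20.9, 23.9 and 51.3 CPM in ALDH3A1KO replicates 1 to 5. The lowest DKO library, at 113 CPM, was far above the highest ALDH3A1KO library (log2 fold change 2.11, SE 0.28, adjusted p = 0.00155). bfsp1 rose by 2.7 (SE 0.23, adjusted p = 1.73e-06), with 3.65 to 5.2 CPM in DKO, against 0.376 to 1.08 CPM in ALDH3A1KO. lgsn, which encodes the lens protein lengsin, rose by 1.83, lctl (ENSDARG00000016337) by 1.41 and mip (ENSDARG00000013963), a water channel of the fibre membrane, by 0.85.

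The transcription factors of the lens did not follow. Of 9 measured, 1 rose, 1 fell and 7 did not pass, and the median was 0.03. mafa was higher by 0.3 (adjusted p = 0.0155), and pax6 (ENSDARG00000103379), a regulator of the whole eye, was lower by 0.28 (adjusted p = 0.0174), with 133 to 167 CPM in DKO, against 166 to 204 CPM in ALDH3A1KO, which overlap. The call of pax6 was lost without DKO replicate 3 (adjusted p = 0.0533). Photoreceptor genes moved little, with 5 higher and 5 lower of 65 (7.69% each, against 10.2% and 8.85% of all genes tested). There were 3 higher without DKO replicate 1 or 3 or ALDH3A1KO replicate 4. rom1a, a disc membrane protein of rods, was an exception at 58.8, 46.8, 67.5, 64.2 and 58.6 CPM in DKO, against 21.4, 23.1, 20.2, 18.5 and 13.9 CPM in ALDH3A1KO (log2 fold change 1.6, SE 0.13, adjusted p = 8.15e-06).

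**Figure D2:**
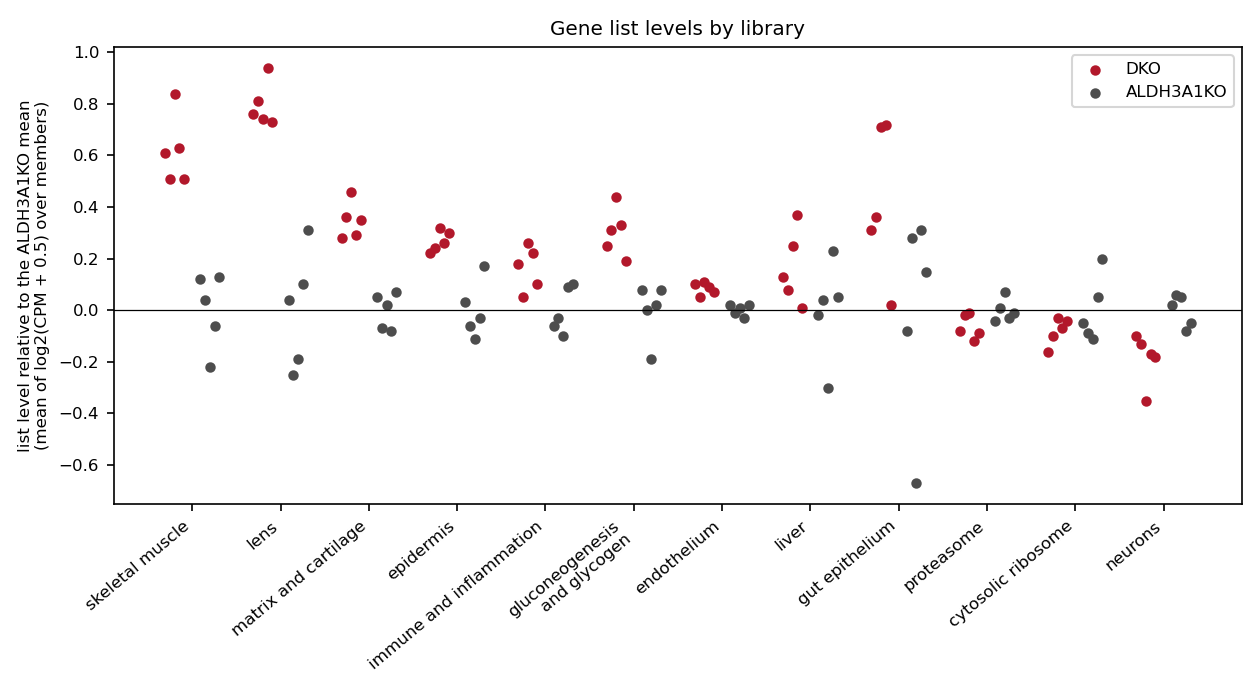
Level of 12 gene lists in each library, as the mean over members of log2(CPM + 0.5) relative to the ALDH3A1KO mean, with DKO left of ALDH3A1KO. For muscle, lens and matrix all 5 DKO libraries lie above all 5 ALDH3A1KO libraries, for neurons they lie below, and the ranges of the genotypes overlap for liver, gut, proteasome and ribosome.

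Skeletal muscle gave the most calls of the 30 lists. Of 161 measured genes, 121 rose (75.2%), 2 fell and 38 did not pass, and the median log2 change was 0.7. Summed over the list, muscle transcripts took 102804 to 141446 CPM in DKO and 53437 to 85170 CPM in ALDH3A1KO. The list level was 0.61, 0.51, 0.84, 0.63 and 0.51 in DKO replicates 1 to 5, and 0.12, 0.04, -0.22, -0.06 and 0.13 in ALDH3A1KO replicates 1 to 5. DKO replicate 3 was the highest of its genotype and ALDH3A1KO replicate 3 the lowest. Without both of them 108 genes still rose and 1 fell, with a median of 0.56.

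Genes of the thin filament, along which force is transmitted, rose for 34 of 44 and fell for 1 (median 0.71). actc1c, an actin gene, had the largest rise among called genes with no overlap, a mean of at least 5 CPM and no clone name. It was at 78.3, 55, 93.9, 84 and 61.3 CPM in DKO replicates 1 to 5, against 13.5, 16.1, 9.03, 11.6 and 19.2 CPM in ALDH3A1KO replicates 1 to 5. No library overlapped, and the log2 fold change was 2.42 (SE 0.23, adjusted p = 0.00018). actc1b, another actin gene, was also higher in every DKO library, with 16645 to 25227 CPM in DKO, against 6395 to 14232 CPM in ALDH3A1KO. Its call (log2 fold change 0.81, adjusted p = 0.0294) was lost without DKO replicate 1 (adjusted p = 0.0628), DKO replicate 3 (0.0688), DKO replicate 4 (0.0616) or ALDH3A1KO replicate 4 (0.064). Actin genes are near-identical, so their reads may be shared. tnnt3 (ENSDARG00000030270), a troponin T, rose by 0.64 (SE 0.06, adjusted p = 2.12e-06), neb, the thin filament ruler nebulin, by 0.8 (SE 0.08, adjusted p = 4.94e-06) and lmod3, an actin nucleator, by 1.55 (SE 0.17, adjusted p = 1.22e-05).

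The thick filament, which holds the myosin motors, had 15 of 21 genes higher and none lower (median 0.68). myom1 (ENSDARG00000061249), a cross-linker of the M-line, averaged 325 ± 28.2 CPM in DKO and 197 ± 23 CPM in ALDH3A1KO (SD, n = 5 each; log2 fold change 0.72, edgeR adjusted p = 1.38e-05). myl1 (ENSDARG00000014196), a myosin light chain, rose by 0.76, mybpc3, a myosin-binding protein, by 0.77 and mylk4 (ENSDARG00000091260), a myosin light chain kinase, by 1.76 (SE 0.28, adjusted p = 0.00154).

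Titin and Z-disc genes anchor the filaments, and 22 of 29 rose with none lower (median 0.71). ttn (ENSDARG00000028213), the giant spring of the sarcomere, rose by 0.75 (SE 0.08, adjusted p = 7.43e-06), with 689 to 909 CPM in DKO, against 423 to 510 CPM in ALDH3A1KO. myot and myoz2 (ENSDARG00000012311), which encode Z-disc proteins, rose by 0.93 and 0.79. tcap, the titin cap, was at 91.2, 70.7, 164, 83.3 and 68.6 CPM in DKO, against 34.8, 12.5, 11.1, 12.3 and 36.2 CPM in ALDH3A1KO. DKO replicate 3 stood far above the other DKO libraries, and without replicate 3 of both genotypes the rise of tcap missed the threshold (log2 fold change 1.71, adjusted p = 0.0549, against 2.16 and 0.0137 with them).

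Excitation and calcium handling had a greater share of calls than the other muscle roles, 27 of 30 higher and none lower (median 0.77). jph2, which holds the surface membrane to the calcium store, had 162, 132, 161, 158 and 143 CPM in DKO, against 79.7, 103, 81, 78.8 and 85.6 CPM in ALDH3A1KO. casq2, which buffers calcium within the store, averaged 96.4 ± 7.62 CPM in DKO and 56.1 ± 5.91 CPM in ALDH3A1KO (SD, n = 5 each). ryr3, a calcium release channel, had 115, 94, 135, 118 and 102 CPM in DKO, against 63.6, 57.4, 52.2, 47.3 and 52.9 CPM in ALDH3A1KO. In these 3 genes the genotypes did not overlap, with log2 fold changes of 0.82, 0.78 and 1.04 (adjusted p = 3.31e-06, 3.32e-06 and 7.61e-06). pvalb1, a parvalbumin that binds calcium, rose by 0.37 (adjusted p = 0.0261), a call that was lost without DKO replicate 3 or 4 (adjusted p = 0.0775 and 0.0668).

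At the neuromuscular junction and muscle membrane, 14 of 20 genes rose and none fell (median 0.66). Named members include subunits of the acetylcholine receptor. chrne had 20.4, 21, 23.6, 22.1 and 19.7 CPM in DKO, against 11, 10.1, 8.93, 9.16 and 10.4 CPM in ALDH3A1KO, a log2 fold change of 1.11 (SE 0.09, adjusted p = 8.37e-07). chrna1 and chrnb1 (ENSDARG00000069660) each rose by 0.74. sgca, part of the sarcoglycan complex of the muscle membrane, rose by 1.62 (SE 0.22, adjusted p = 0.000526). In contrast to the subunits made by muscle, chat, the enzyme with which motor neurons make the transmitter, was lower by 0.55 (SE 0.08, adjusted p = 0.000175).

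Energy genes of muscle gave 9 higher and 1 lower of 17 (median 0.69). ckma, a muscle creatine kinase, had 4318, 3241, 5256, 4756 and 3592 CPM in DKO replicates 1 to 5, against 2348, 2357, 1357, 2281 and 2292 CPM in ALDH3A1KO replicates 1 to 5 (log2 fold change 0.99, SE 0.18, adjusted p = 0.00382). slc25a4, the carrier that exchanges ADP and ATP across the mitochondrial membrane, rose by 0.69 (SE 0.11, adjusted p = 0.00116). mb, the oxygen store myoglobin, went the other way: 224, 199, 258, 212 and 215 CPM in DKO, against 373, 342, 393, 322 and 369 CPM in ALDH3A1KO, with no overlap (log2 fold change -0.7, SE 0.07, adjusted p = 8.25e-06).

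Regulators of muscle development gave 7 higher and 1 lower of 24 (median 0.36), with 3 higher without DKO replicate 3 and 4 higher without ALDH3A1KO replicate 3 or 4. mef2c (ENSDARG00000029764), a transcription factor of sarcomere genes, rose by 0.66 (SE 0.07, adjusted p = 5.37e-06) and six4a, a homeobox factor, by 0.73. Cytosolic chaperones gave 11 higher and 1 lower of 31 (35.5% and 3.23%). smyd1 (ENSDARG00000091253), a partner in myosin assembly, rose by 1.04 (SE 0.11, adjusted p = 1.96e-05). ahsa1 (ENSDARG00000028664), an activator of Hsp90, rose by 1.48 and hspb8, a small heat shock protein of muscle, by 0.97. Heart genes gave 4 higher and 1 lower of 25 (16% and 4%, against 10.2% and 8.85% of all genes tested). Their median was 0.29, and 2 were higher without ALDH3A1KO replicate 3 or 4.

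**Figure D3:**
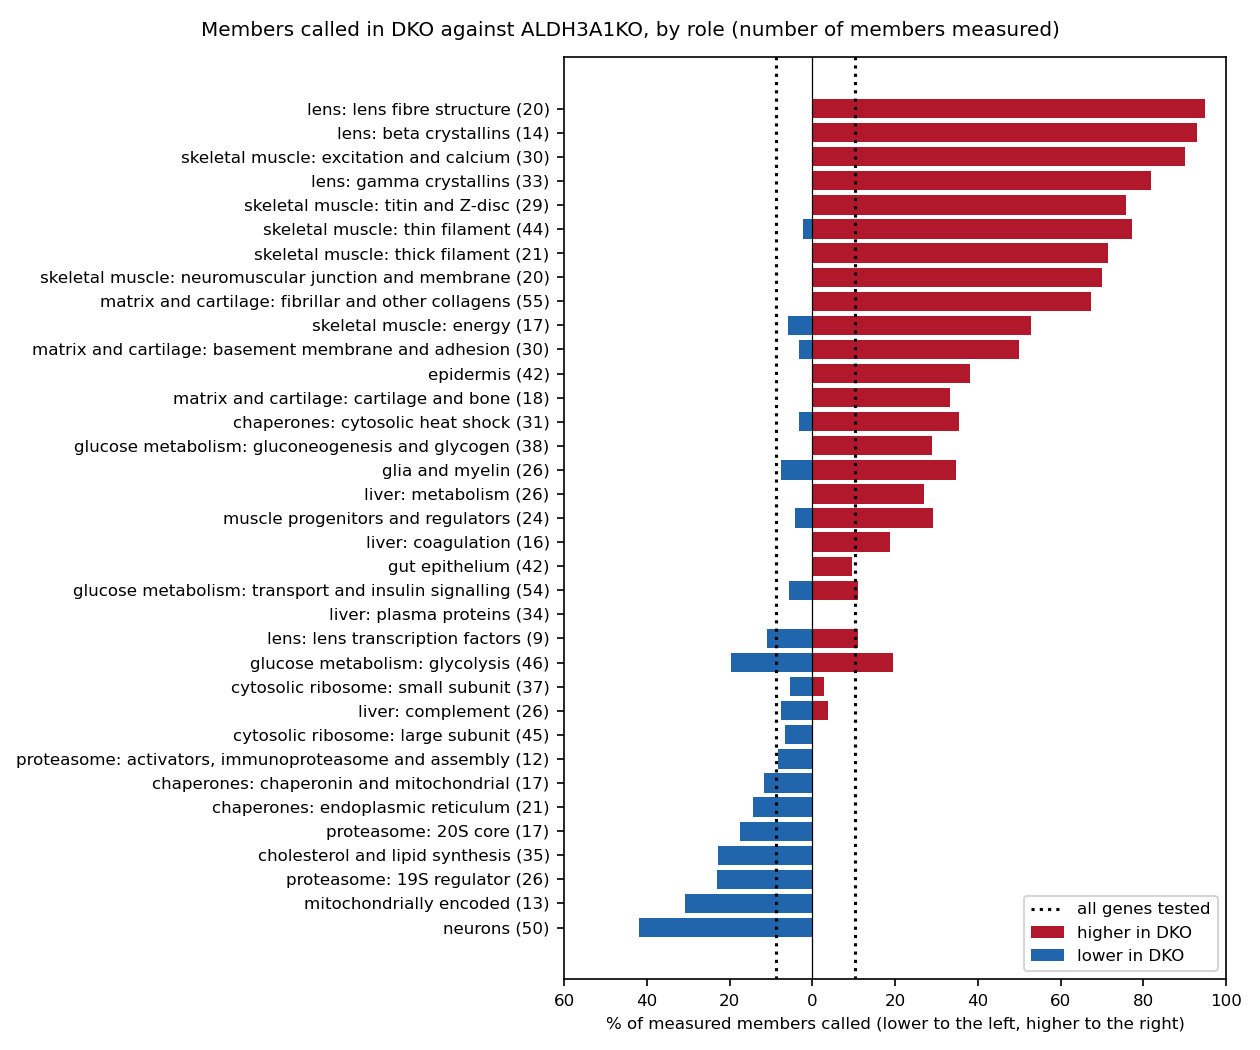
Percent of measured members called higher (right) and lower (left) in DKO, for roles of the gene lists, with the number of members measured in brackets; dotted lines mark the 10.2% and 8.85% of all genes tested. Lens fibre structure (95% higher), beta crystallins (92.9%) and excitation and calcium (90%) stand at the top, and neurons, with 42% lower, at the bottom.

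Extracellular matrix and cartilage genes also rose widely. Of 103 measured, 58 rose, 1 fell and 44 did not pass, with a median of 0.37. The rise was largest in share among collagens, 37 of 55 with none lower, whose sum was 9204 to 10390 CPM in DKO and 6814 to 8288 CPM in ALDH3A1KO. col17a1a, a collagen that ties basal epidermal cells to the basement membrane, had 199, 187, 235, 209 and 207 CPM in DKO replicates 1 to 5, against 123, 102, 87.5, 91 and 117 CPM in ALDH3A1KO replicates 1 to 5 (log2 fold change 1.0, SE 0.09, adjusted p = 5.37e-06). The genotypes did not overlap. col16a1 rose by 0.7, col11a2, a collagen of cartilage, by 0.58 and col1a1, the main collagen of skin and bone, by 0.38 (adjusted p = 0.000945).

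Basement membrane and adhesion genes gave 15 higher and 1 lower of 30. lamb2 and lamc1, chains of laminin, rose by 0.84 (SE 0.08, adjusted p = 2.13e-06) and 0.72 (SE 0.1, adjusted p = 0.000166). thbs1 (ENSDARG00000103775), a thrombospondin, rose by 0.7. Cartilage and bone genes gave 6 higher and none lower of 18. Those with the smallest p were cnmd, which encodes chondromodulin (0.54), epyc, a proteoglycan of cartilage (0.49), and ucma, a matrix protein of cartilage (1.18). The cartilage marker matn1 overlapped, with 81.8 to 131 CPM in DKO and 49.7 to 122 CPM in ALDH3A1KO. fbln7, a fibulin of the matrix, was at 5.21, 5.71, 4.78, 4.75 and 5.39 CPM in DKO, against 1.38, 1.24, 0.879, 1.3 and 1.4 CPM in ALDH3A1KO (log2 fold change 2.06, SE 0.16, adjusted p = 8.37e-07). timp4 (ENSDARG00000111805), an inhibitor of matrix proteases, rose by 2.34 from a low level (1.11 to 1.69 CPM in DKO, against 0.0567 to 0.537 CPM in ALDH3A1KO).

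Epidermal keratin and junction genes gave 16 higher and none lower of 42 (38.1%), with a median of 0.23. The list level did not overlap between the genotypes, at 0.22 to 0.32 in DKO and -0.11 to 0.17 in ALDH3A1KO. Its summed level did, at 30829 to 36787 CPM in DKO and 27145 to 32398 CPM in ALDH3A1KO. The marker krt4 overlapped, with 14599 to 18065 against 13925 to 15480 CPM. The marker krt5 did not, with 4624 to 5111 against 3262 to 4419 CPM. dsp (ENSDARG00000076673), the desmosome linker desmoplakin, had 15.4, 20.9, 21.1, 16.3 and 15.8 CPM in DKO, against 10.3, 9.51, 9.35, 6.69 and 8.95 CPM in ALDH3A1KO (log2 fold change 1.0, SE 0.12, adjusted p = 4.15e-05). cldnb, a tight junction claudin, rose by 0.57 and dsc2l, a desmosomal cadherin, by 0.65. Without replicate 3 of both genotypes the epidermis list had 13 higher and 1 lower, and the matrix list 47 higher and 1 lower.

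Genes of synaptic transmission, the list called neurons here, went the opposite way. Of 50 measured genes of synaptic transmission, 21 fell (42%), none rose and 29 did not pass, with a median of -0.24. The list lay at -0.1, -0.13, -0.35, -0.17 and -0.18 in DKO replicates 1 to 5, and at 0.02, 0.06, 0.05, -0.08 and -0.05 in ALDH3A1KO replicates 1 to 5. DKO replicate 3, the highest library for muscle, was the lowest for neurons, and without replicate 3 of both genotypes 17 fell and the median was -0.13. grin1 (ENSDARG00000027828), an obligatory subunit of NMDA receptors, had 302, 264, 236, 310 and 272 CPM in DKO replicates 1 to 5, against 397, 435, 367, 465 and 393 CPM in ALDH3A1KO replicates 1 to 5 (log2 fold change -0.57, SE 0.08, adjusted p = 0.00011). slc17a6 (ENSDARG00000041150), a vesicular glutamate transporter, fell by 0.42 (SE 0.06, adjusted p = 8.76e-05). Among defining markers of neurons, elavl3 overlapped, with 190 to 225 CPM in DKO and 174 to 240 CPM in ALDH3A1KO. snap25 (ENSDARG00000020609) did not, with 373 to 450 against 472 to 515 CPM. Nor did snap25 (ENSDARG00000058117), with 333 to 390 against 427 to 519 CPM.

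Glia genes gave 9 higher and 2 lower of 26 (34.6% and 7.69%, against 10.2% and 8.85% of all genes tested), with a median of 0.05. There were 3 higher without DKO replicate 3, 5 without ALDH3A1KO replicate 4, and 2 without replicate 3 of both genotypes. gfap, the intermediate filament of radial glia, had 241, 257, 251, 255 and 261 CPM in DKO, against 180, 156, 182, 167 and 202 CPM in ALDH3A1KO (log2 fold change 0.51, SE 0.07, adjusted p = 5.38e-05). The glial marker mbpa was higher with no overlap, at 39.5 to 51.9 CPM in DKO and 30.6 to 39.1 CPM in ALDH3A1KO. glul (ENSDARG00000099776), the glutamine synthetase of glia, was lower by 0.31 (SE 0.07, adjusted p = 0.0042). Islet genes gave 2 higher and 7 lower of 29 (6.9% and 24.1%, against 10.2% and 8.85% of all genes tested). There were 4 lower without replicate 3 of both genotypes. Those with the smallest p were insm1 (ENSDARG00000091756; -0.3), neurod1 (-0.33), which is also on the photoreceptor list, and scg2b (-0.27). The tissue in which these genes fell was not determined. The islet hormone genes ins and gcga were at low levels, and for each the genotypes overlapped. ins had 1.6 to 2.17 CPM in DKO, against 0.72 to 1.93 CPM in ALDH3A1KO, and gcga 1.52 to 2.33 against 1.52 to 2.22 CPM.

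**Figure D4:**
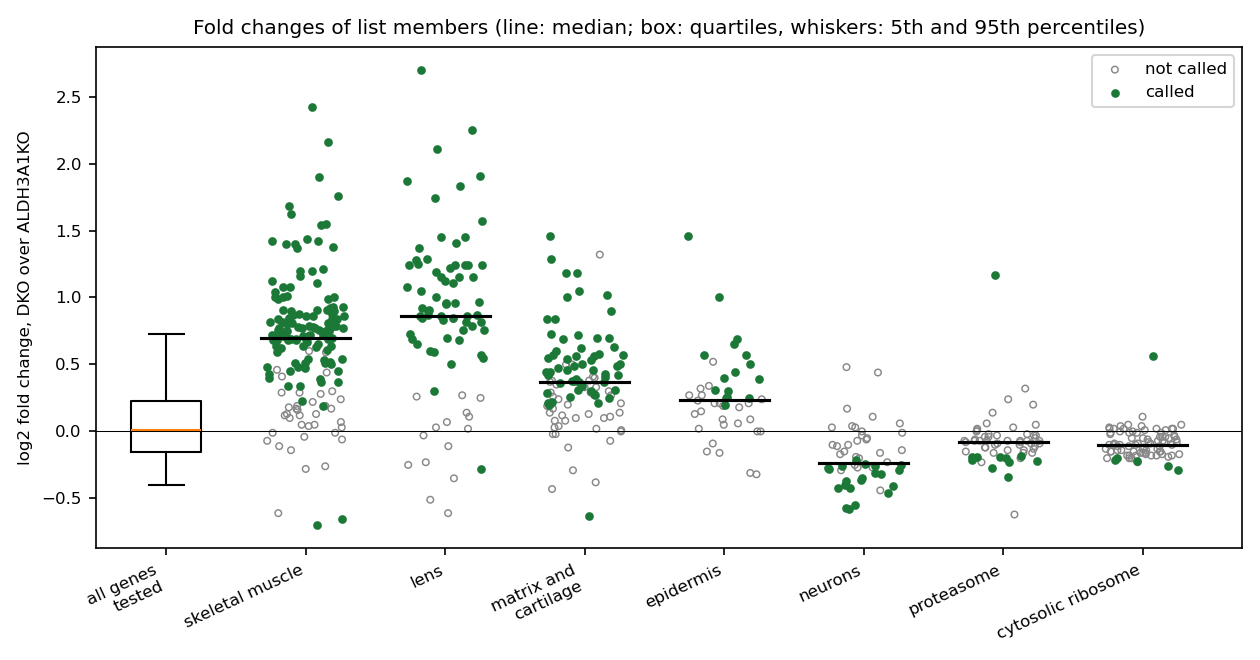
Log2 fold changes (DKO over ALDH3A1KO) of the members of 7 lists, called members filled and others open, with the median of each list as a line; the box shows the quartiles and 5th and 95th percentiles of all genes tested. Medians are 0.7 for skeletal muscle, 0.86 for lens, 0.37 for matrix and cartilage, 0.23 for epidermis, -0.24 for neurons, -0.08 for proteasome and -0.1 for the cytosolic ribosome.

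Proteasome genes, named in the title of the series, moved little. Of 58 measured, 10 fell (17.2%) and 1 rose, with a median of -0.08, and the summed level was 2705 to 2960 CPM in DKO and 2908 to 3307 CPM in ALDH3A1KO, which overlap. The count of falls depended on single libraries. Without DKO replicates 1 to 5 in turn it was 5, 7, 5, 3 and 8. Without ALDH3A1KO replicates 1 to 5 in turn it was 9, 9, 3, 6 and 5. Falls over all genes tested also varied in these runs, from 1182 to 2056, against 1892 with all libraries. The 19S regulator, which unfolds substrates, had 6 of 26 lower (23.1%). The 20S core, which cuts them, had 3 of 17 lower (17.6%), against 8.85% of all genes tested. psmc3, an ATPase of the regulator, averaged 86.7 ± 3.17 CPM in DKO and 101 ± 6.83 CPM in ALDH3A1KO (SD, n = 5 each; log2 fold change -0.23, edgeR adjusted p = 0.0115), and psmd8 fell by 0.27 (adjusted p = 0.0125). psme3, which encodes an activator of the nuclear proteasome, fell by 0.34 (SE 0.06, adjusted p = 0.00156). The 1 gene that rose was nfe2l1, the transcription factor that induces proteasome genes in mammals, at 4.28, 4.81, 7, 4.81 and 3.22 CPM in DKO, against 3.08, 2.58, 1.25, 1.67 and 2.1 CPM in ALDH3A1KO (log2 fold change 1.17, SE 0.24, adjusted p = 0.00276).

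Genes encoded by mitochondrial DNA gave 4 lower and none higher of 13 (30.8% lower, against 8.85% of all genes tested). They took 3.32% to 3.72% of the counts in DKO and 3.65% to 4.28% in ALDH3A1KO. The 3 with the smallest p encode subunits of complex I. mt-nd3 had 269, 266, 272, 304 and 254 CPM in DKO replicates 1 to 5, against 396, 496, 445, 500 and 439 CPM in ALDH3A1KO replicates 1 to 5 (log2 fold change -0.74, SE 0.07, adjusted p = 3.63e-06). mt-nd2 fell by 0.55 (SE 0.08, adjusted p = 0.000186) and mt-nd1 by 0.3 (SE 0.06, adjusted p = 0.00188). Nuclear genes of the respiratory chain did not fall, with 11 higher and none lower of 93. The share higher, 11.8%, was close to the 10.2% of all genes tested. The count of rises was 4 without DKO replicate 3, 7 without DKO replicate 4, 7 without ALDH3A1KO replicate 3 and 17 without ALDH3A1KO replicate 5. With the replicate number as a block it was 3, and without replicate 3 of both genotypes 2 rose and 1 fell. Cytosolic ribosomal protein genes gave 1 higher and 5 lower of 82 and a median of -0.1, with 36 lower under scaling by total counts and 17 by DESeq2. The 5 falls became 2 without DKO replicate 1 or 3 or ALDH3A1KO replicate 4 or 5, 3 without DKO replicate 4 and 13 without ALDH3A1KO replicate 2 or 3. rpl9 and rps27.2, of the large and small subunits, fell by 0.29 and 0.26.

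Lipid synthesis genes gave 8 lower and none higher of 35 (22.9%), with a median of -0.2 and 5 lower without DKO replicate 3. scdb, a fatty acid desaturase, fell by 0.31 and elovl6, a fatty acid elongase, by 0.33. plin2, a coat protein of lipid droplets, fell by 0.83 (SE 0.16, adjusted p = 0.00145). Genes of endoplasmic reticulum protein folding gave 3 lower and none higher of 21 (14.3% lower, against 8.85% of all genes tested). Among the 3 were atf4b (-0.2, adjusted p = 0.0119) and xbp1 (-0.3, adjusted p = 0.0142), transcription factors of the unfolded protein response. The libraries overlapped for xbp1, at 180 to 220 CPM in DKO and 203 to 266 CPM in ALDH3A1KO. atf4a, the paralog of atf4b and the member with the highest CPM, was unchanged (0.01, adjusted p = 0.94).

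Glucose metabolism was mixed. Genes of gluconeogenesis and glycogen gave 11 higher and none lower of 38 (28.9%), with a median of 0.23. ugp2 (ENSDARG00000005578), which makes the glucose donor for glycogen, had 6.98, 6.49, 9.92, 6.03 and 5.7 CPM in DKO, against 2.97, 2.66, 2.05, 2.64 and 1.46 CPM in ALDH3A1KO (log2 fold change 1.57, SE 0.19, adjusted p = 4.02e-05). pygb, a glycogen phosphorylase, rose by 0.48 and fbp2, a fructose bisphosphatase of muscle, by 0.75. Some members of this list are also muscle enzymes, and the muscle list rose in the same libraries, a relation whose part in the result was not tested. Glycolysis genes split evenly, with 9 higher and 9 lower of 46 (19.6% each, against 10.2% and 8.85% of all genes tested). Over all 138 genes of glucose metabolism 26 rose, and 17 rose without DKO replicate 3. pfkfb3, a kinase that stimulates glycolysis, rose by 0.88 (SE 0.16, adjusted p = 0.00306), and pfkfb2, a relative, fell by 0.52 (SE 0.1, adjusted p = 0.00145). eno2, the neuronal enolase, fell by 0.31 (adjusted p = 0.00146).

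gpi (ENSDARG00000103826), a glucose-6-phosphate isomerase, had 69.1 to 96 CPM in DKO, against 28.9, 2.12, 10.7, 14.2 and 27.3 CPM in ALDH3A1KO replicates 1 to 5. The genotypes did not overlap, but the ALDH3A1KO libraries ranged widely, and the call (log2 fold change 2.3, SE 0.55, adjusted p = 0.0222) was lost without DKO replicate 3 (adjusted p = 0.0539), ALDH3A1KO replicate 3 (0.0533) or ALDH3A1KO replicate 4 (0.054). In glucose transport and insulin signalling, 6 rose and 3 fell of 54 (11.1% and 5.56%, near the 10.2% and 8.85% of all genes tested). txnip (ENSDARG00000036107), an inhibitor of glucose uptake, had 300, 289, 382, 366 and 289 CPM in DKO replicates 1 to 5, against 202, 182, 202, 201 and 199 CPM in ALDH3A1KO replicates 1 to 5 (log2 fold change 0.72, SE 0.08, adjusted p = 1.33e-05). Glucose transporter genes differed among themselves: slc2a1 (ENSDARG00000007412) rose by 0.73 (adjusted p = 0.00496) and slc2a3a fell by 0.3 (adjusted p = 0.00315).

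Vessel genes, the subject of the reporter line, gave 5 higher and 1 lower of 79 (6.33% and 1.27%), below the shares over all genes, with a median of 0.06. tek, the receptor of angiopoietins, was the clearest, at 10.1, 11.7, 8.69, 10.6 and 11 CPM in DKO, against 5.59, 4.92, 5.33, 4.4 and 6.39 CPM in ALDH3A1KO (log2 fold change 0.97, SE 0.12, adjusted p = 4.12e-05). mrc1, a scavenger receptor, rose by 0.67, cxcl12b, a chemokine that guides vessels, by 0.4 and s1pr2, a receptor of sphingosine phosphate, by 0.55. mrc1 and s1pr2 missed the threshold without replicate 3 of both genotypes (adjusted p = 0.0868 and 0.0791). The defining markers cdh5, fli1 and kdrl were present in all libraries, and for each the genotypes overlapped. cdh5 had 27 to 31.8 CPM in DKO and 27.6 to 35.6 CPM in ALDH3A1KO. fli1 had 34.9 to 42.3 CPM in DKO and 27.8 to 41.1 CPM in ALDH3A1KO, and kdrl 13.7 to 16.2 and 11.7 to 14.7 CPM. The vessel list level was 0.05 to 0.11 in DKO and -0.03 to 0.02 in ALDH3A1KO, with no overlap. Its summed level overlapped, at 1838 to 1860 CPM in DKO and 1739 to 1896 CPM in ALDH3A1KO.

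Liver and gut genes varied among libraries of the same genotype. The liver list lay at 0.13, 0.08, 0.25, 0.37 and 0.01 in DKO replicates 1 to 5, and at -0.02, 0.04, -0.3, 0.23 and 0.05 in ALDH3A1KO replicates 1 to 5, so the genotypes overlapped. Of 102 liver genes, 11 rose (10.8%) and 2 fell, with 7 higher without replicate 3 of both genotypes. The median of 0.15 was 0.08 without ALDH3A1KO replicate 3 and 0.24 without ALDH3A1KO replicate 4. Plasma protein genes, the main product of the liver, gave no call among 34 by edgeR's test. Metabolic genes of the liver gave 7 higher of 26 (26.9%, against 10.2% of all genes tested). cps1 and otc, enzymes of the urea cycle, rose by 1.6 (SE 0.2, adjusted p = 5.36e-05) and 0.85 (SE 0.12, adjusted p = 9.54e-05), and pah, which degrades phenylalanine, by 0.53. plg, the plasmin precursor, was higher by 0.45 (adjusted p = 0.0145), a call lost without replicate 3 of both genotypes (adjusted p = 0.0801). Complement genes of the liver list gave 1 higher and 2 lower of 26. The 1 that rose was c3b.1 (log2 fold change 0.97, SE 0.21, adjusted p = 0.00398).

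The gut list reached -0.67 in ALDH3A1KO replicate 3 and spanned 0.02 to 0.72 in DKO, against -0.67 to 0.31 in ALDH3A1KO, which overlap. Of 42 genes, 4 rose (9.52%, close to the 10.2% of all genes tested) and none fell, and 7 rose without ALDH3A1KO replicate 2. dpp4, a brush border peptidase, rose by 0.9 (SE 0.21, adjusted p = 0.00728). slc6a19 (ENSDARG00000056719), an amino acid transporter, was higher by 0.92 (adjusted p = 0.0135), a call lost without replicate 3 of both genotypes (adjusted p = 0.0759). Blood genes gave 4 higher of 16 (25%, against 10.2% of all genes tested), and 7 without ALDH3A1KO replicate 2. The 4 included alas2, the first enzyme of haem synthesis in red cells (0.63), and hbae3, a globin (0.53). The blood marker hbae1.1 overlapped, with 10.9 to 14.2 CPM in DKO and 6.69 to 17.7 CPM in ALDH3A1KO.

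Immune genes gave 10 higher and none lower of 51 (19.6% higher, against 10.2% of all genes tested). Among those with the smallest p are inhibitors that cytokine and NF-kB signals induce. socs3 (ENSDARG00000025428) had 98.7, 37.3, 102, 129 and 101 CPM in DKO replicates 1 to 5, against 21.4, 23.1, 15.3, 17.5 and 31.6 CPM in ALDH3A1KO replicates 1 to 5 (log2 fold change 2.11, SE 0.34, adjusted p = 0.00405). DKO replicate 2 was far below the other DKO libraries and still above every ALDH3A1KO library. It was also the lowest DKO library for socs1, which rose by 1.13 (SE 0.17, adjusted p = 0.000464), and for nfkbiaa, which rose by 1.19 (SE 0.16, adjusted p = 0.000271). mhc1zba, a class I antigen-presenting gene, rose by 1.58 (SE 0.22, adjusted p = 0.000613). The stress-induced growth arrest genes gadd45b (ENSDARG00000013576), gadd45b (ENSDARG00000027744) and btg2 rose by 0.92, 1.22 and 0.5. In their list of 22, 5 rose and 2 fell (22.7% and 9.09%, against 10.2% and 8.85% of all genes tested).

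tnfrsf14, which encodes a cell surface receptor of the TNF receptor superfamily, had the largest fall among called genes with no overlap, a mean of at least 5 CPM and no clone name. Its level was 0.338, 0.281, 0.583, 0.641 and 0.314 CPM in DKO replicates 1 to 5, against 7.07, 7.06, 7.97, 11.8 and 10 CPM in ALDH3A1KO replicates 1 to 5. All DKO libraries were under 1 CPM and all ALDH3A1KO libraries over 7, and tnfrsf14 had a log2 fold change of -4.34 (SE 0.23, adjusted p = 4.26e-09), beside -4.18 for glo1. cfp, the complement factor properdin, averaged 2.67 ± 0.425 CPM in DKO and 8.82 ± 1.25 CPM in ALDH3A1KO (SD, n = 5 each; log2 fold change -1.72, edgeR adjusted p = 1.19e-06). dpp7, a lysosomal dipeptidase, fell by 1.27 (SE 0.09, adjusted p = 1.1e-06).

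malat1, a nuclear RNA that codes for no protein, had 1415, 1352, 1271, 1626 and 1754 CPM in DKO, against 2653, 2667, 2409, 3277 and 2931 CPM in ALDH3A1KO (log2 fold change -0.91, SE 0.1, adjusted p = 1.22e-05). rbm25a, a splicing factor, fell by 1.04, dusp14, a phosphatase of kinases, by 0.98, capn2l, a calpain protease, by 0.96 and pomt1, a mannosyltransferase that acts on dystroglycan, by 0.93. cfap45, a protein of cilia, and coq4, needed to make coenzyme Q, each fell by 0.82. Among the genes with the largest rises, ggact (ENSDARG00000038248), an enzyme that cleaves protein cross-link products, rose by 2.08, and pbld (ENSDARG00000026359) rose by 1.74. klf9, a transcription factor induced by glucocorticoids, rose by 1.66 (SE 0.36, adjusted p = 0.0146). It had 25.4 to 42.2 CPM in DKO, against 14.3, 5.96, 16.1, 4.14 and 11.8 CPM in ALDH3A1KO replicates 1 to 5. ALDH3A1KO replicates 2 and 4 were thus well below the others.

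The cryptochromes cry3b and cry3a, light and clock genes, fell by 2.09 (SE 0.37, adjusted p = 0.00588) and 0.7 (SE 0.14, adjusted p = 0.00503). cry3b had 11.1, 15.1, 18.7, 8.57 and 8.76 CPM in DKO, against 38.1, 69.8, 30.8, 87.3 and 40.2 CPM in ALDH3A1KO. cry3a had 261 to 274 CPM in DKO, against 372, 513, 329, 570 and 364 CPM in ALDH3A1KO replicates 1 to 5. ALDH3A1KO replicates 2 and 4 were highest for both genes. The level of the whole clock list also set these libraries apart, at -0.32 and -0.34. It was 0.25, 0.28 and 0.13 in ALDH3A1KO replicates 1, 3 and 5, and -0.02, 0.15, 0.11, -0.06 and -0.22 in DKO replicates 1 to 5. The cause of this split was not tested. In the whole clock list 1 gene rose and 3 fell of 38, and 5 fell without ALDH3A1KO replicate 2. The count of rises was 3 without ALDH3A1KO replicate 1, 2 without DKO replicate 5, and 0 without DKO replicate 1, 2, 3 or 4 or ALDH3A1KO replicate 4 or 5.

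RNA integrity was followed through genes with very long coding sequences. Of 82 measured, 16 were higher (19.5%) and 4 lower, with a median of 0.02, and 9 were lower without ALDH3A1KO replicate 5. Their summed level was 6484 to 7161 CPM in DKO and 5595 to 6121 CPM in ALDH3A1KO, with no overlap, while the mean log2 level of the list overlapped. Some of these genes are muscle genes. Of the 73 outside the muscle list, 8 were higher and 4 lower, with a median of -0.01, against 0.01 over all genes tested.

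Whether glo1 loss had the same effect on the wild type background was examined by setting DKO minus ALDH3A1KO against GLO1KO minus WT, contrasts that share no library. The difference between these effects was tested in one edgeR fit over all 20 libraries (22234 genes). It was called for 4157 genes as positive (18.7%) and for 3748 as negative (16.9%). In the same fit, GLO1KO libraries were higher than WT for 3253 genes (14.6%) and lower for 4033 (18.1%). The calls of DKO against ALDH3A1KO set beside them come from the fit of 10 libraries, so the tests are unlike. In the fit of 20 libraries, DKO against ALDH3A1KO gave 2458 higher and 2581 lower. Of the genes called in DKO against ALDH3A1KO, 1577 were also called in GLO1KO against WT, which is 38.8% of the DKO calls and 22.1% of the GLO1KO calls. Among these, 547 (34.7%) had the same direction in both and 1030 had opposite directions. For 2863 of the 4064 DKO calls the difference itself passed the test.

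**Figure D5:**
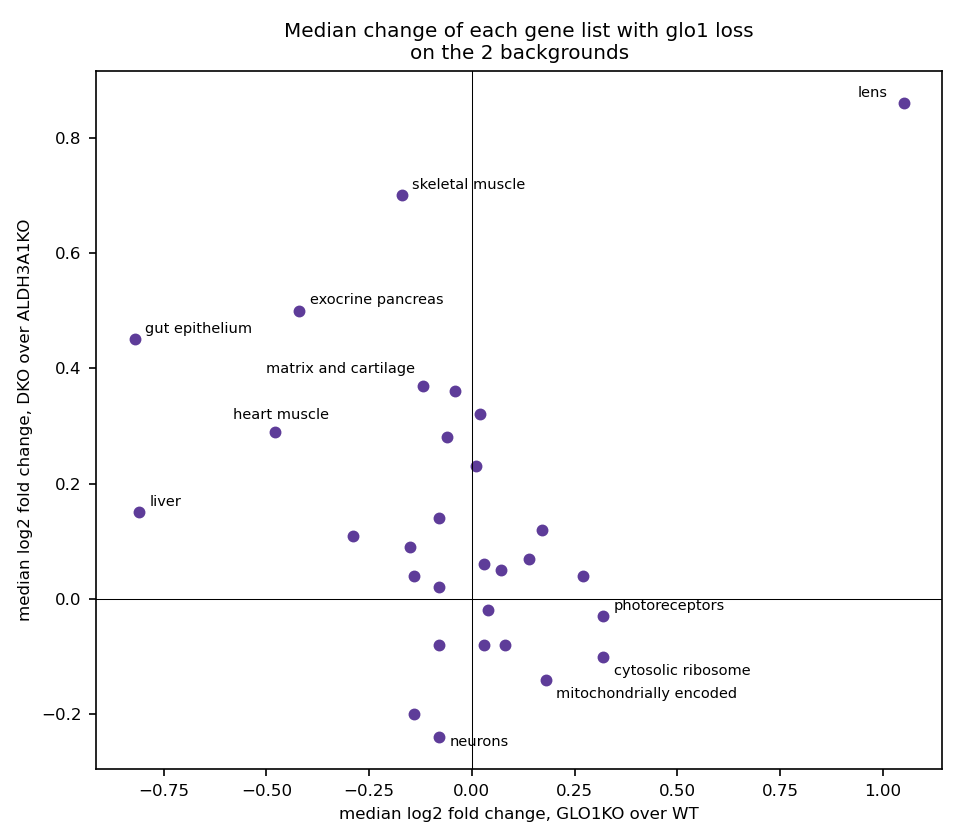
Median log2 fold change of each of 30 gene lists with glo1 loss on the aldh3a1 knockout background (DKO over ALDH3A1KO, vertical axis) and on the wild type background (GLO1KO over WT, horizontal axis). Lens is high on both axes (0.86 and 1.05). Skeletal muscle (0.7 and -0.17), gut (0.45 and -0.82) and liver (0.15 and -0.81) lie above 0 on the vertical axis and below 0 on the horizontal axis; the 0.15 of liver is 0.08 without ALDH3A1KO replicate 3 and 0.24 without ALDH3A1KO replicate 4.

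glo1 itself changed by -4.18 in DKO over ALDH3A1KO and by -4.19 in GLO1KO over WT (difference -0.01, SE 0.12, adjusted p = 0.976). Lens genes rose on both: 61 of 78 in DKO over ALDH3A1KO, with a median of 0.86, and 65 of 79 in GLO1KO over WT, with a median of 1.05. The difference was called for 3 lens genes as positive and for 11 as negative. Skeletal muscle genes had a median of 0.7 in DKO over ALDH3A1KO and of -0.17 in GLO1KO over WT, where 11 rose and 46 fell of 162. The difference was positive for 124 muscle genes and negative for 3. Matrix and cartilage genes had a median of 0.37 in DKO over ALDH3A1KO and of -0.12 in GLO1KO over WT, and the difference was positive for 62 of 106.

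Some other lists had more calls in GLO1KO over WT, whose calls came from the fit of 20 libraries. Ribosomal protein genes gave 1 higher and 5 lower of 82 in DKO over ALDH3A1KO, against 74 higher and none lower of 82 in GLO1KO over WT (median 0.32), and the difference was negative for 71. Liver genes gave 11 higher and 2 lower of 102 in DKO over ALDH3A1KO, against 3 higher and 66 lower of 106 in GLO1KO over WT (median -0.81), and the difference was positive for 61. Photoreceptor genes gave 5 higher and 5 lower of 65 in DKO over ALDH3A1KO, against 33 higher and 1 lower of 65 in GLO1KO over WT, and the difference was negative for 28. Single genes showed opposite effects as well. actc1c rose by 2.42 in DKO over ALDH3A1KO and changed by -6.76 in GLO1KO over WT (difference 9.17, SE 0.47, adjusted p = 8.63e-09). malat1 changed by -0.91 in DKO over ALDH3A1KO and by 0.6 in GLO1KO over WT (difference -1.52, SE 0.14, adjusted p = 5.2e-07).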

How the data were processed

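The deposited table holds whole-number counts per gene, made by the authors with featureCounts 2.0.3 on build GRCz11, per the submitters' processing notes. Libraries were strand-specific mRNA libraries for DNBSEQ sequencing, per the labels' protocols. Neither the aligner nor whether counting used the strand is stated in the sources used here, so reads of a gene and an antisense or overlapping partner may be mixed. Symbols were matched to 29201 of 32520 IDs through a table of gene names; listed symbols were also sought through synonyms in a RefSeq table of assembly GRCz12tu. A symbol that several IDs carry is printed with its ID.

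The 10 libraries were fitted with edgeR 4.0.16 in R 4.3.3 (filterByExpr, TMM factors, robust quasi-likelihood F-test). Its two-sided p-values had Benjamini-Hochberg adjustment over 21378 genes, which hold 99.95% of the counts. The biological coefficient of variation was 0.133. CPM values use TMM factors, and each SE is the size of the log2 fold change divided by the root of its F. A fit of all 20 libraries gave GLO1KO against WT and the difference of the 2 glo1 effects. Alternatives were DESeq2 1.42.0, limma 3.58.1 (voom with quality weights), other scalings and filters, the replicate number as a block, and each library left out. Leaving out replicate 3 of both genotypes was chosen after seeing the data. In counts simulated for DKO against ALDH3A1KO over 21378 genes, the test recovered 70% of the 1.5-fold changes and 92% of the 2-fold changes, and made 7 false calls. The simulation changed 50 genes at each fold of 1.5, 2, 3 and 4, and its spread followed expression level alone. Far more genes were called in the data, so these rates may not carry over to them. Figures were drawn with matplotlib 3.10.9.

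Named genes are glo1, the top 15 by size of change each way (called, no overlap, at least 5 CPM on average in the higher genotype, no clone name), and for each role of 30 lists up to 3 called members with the smallest adjusted p and the member with the highest CPM. The text prints 138 of them, and some results are not reported here. Members and lists were chosen with earlier results of these data known. Nothing in the labels says that libraries are from separate clutches or pools; p-values then measure the spread between these libraries only, which may be technical.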

Additional observations from a re-analysis of the deposited data

Results flagged for a closer look

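In 17 of 276 groups of 5 libraries examined, 1 library lay apart from the other 4 by Dixon's test, which flags about 1 group in 20 by chance. Among DKO libraries, replicate 3 was highest for tcap (164 CPM), col11a2 (181), pygb (21.5) and pfkfb3 (52.2). DKO replicate 4 was highest for crygm2d13 (1052 CPM) and lgsn (62.9). DKO replicate 2 was highest for dsc2l (44.4 CPM) and pomt1 (8.41) and lowest for cldnb (64).

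Among ALDH3A1KO libraries, replicate 3 was lowest for pvalb1 (7891 CPM) and ckma (1357). ALDH3A1KO replicate 2 was lowest for mip (ENSDARG00000013963; 75.8 CPM) and txnip (ENSDARG00000036107; 182) and highest for jph2 (103). ALDH3A1KO replicate 1 was highest for col16a1 (27.7 CPM) and lowest for psme3 (31.6), and ALDH3A1KO replicate 5 was highest for gadd45b (ENSDARG00000013576; 9.83).

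The 30 genes with the largest changes were chosen by 1 of the 2 effects compared here, which favours a difference between them. Over all 4064 DKO calls, which were chosen by the same effect and so favour a difference too, it passed edgeR's test for 2863. For 21 of the 30 genes, a share close to that, the effect of glo1 loss in DKO over ALDH3A1KO differed from that in GLO1KO over WT by the same test. On the log2 scale this difference was positive for actc1c (9.17), ggact (4.64), gpi (2.22), mylk4 (2.19), sgca (1.66), klf9 (1.58), pbld (1.36), crygm5 (1.22), fbln7 (0.99) and rom1a (0.78). It was negative for tnfrsf14 (-3.14), cfp (-1.69), malat1 (-1.52), dpp7 (-1.43), cbr1 (-1.3), mgst2 (-1.1), dusp14 (-1.08), coq4 (-0.97), plin2 (-0.85), cfap45 (-0.75) and pomt1 (-0.54).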

How the results depend on the processing

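Replicate numbers did not pair the libraries: 1 of 5 same-number correlations was over 0.1, and 1 DKO library correlated best with its own number. With the replicate number as a block, 1915 genes were higher and 1451 lower, and 4 proteasome genes fell in place of 10. Requiring a log2 change of at least 1 left 398 higher and 74 lower. Scaling by total counts alone gave 2880 lower in place of 1892. With each library left out, calls ranged from 1511 to 2177 higher and from 1182 to 2056 lower, proteasome genes lower from 3 to 9, muscle genes higher from 105 to 121, lens genes higher from 57 to 61, matrix genes higher from 48 to 59, epidermal genes higher from 12 to 20 and neuronal genes lower from 19 to 22. Without replicate 3 of both genotypes, 1356 genes were higher, 1019 lower and 4 proteasome genes lower. The causes were not tested. No printed gene changed direction under any alternative run, and DESeq2 kept the call of all of the printed genes. At these totals the simulated counts gave 70% recovery of 1.5-fold changes, so smaller changes, above all in genes of few counts, may have been missed.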

Other observations

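In all, 13 called genes with no overlap had a log2 change of 4 or more in size (6 higher in DKO and 7 lower). glo1 and tnfrsf14 are among the 7 lower, and they and ccdc134 are the 3 with a symbol that is not a clone name. The genes described here were chosen after their values were seen. si:dkeyp-86f5.1 averaged 0.756 ± 0.0775 CPM in DKO and was at 0 in all 5 ALDH3A1KO libraries (SD, n = 5), and si:dkeyp-86f5.2 averaged 0.708 ± 0.237 CPM in DKO and was also at 0 in ALDH3A1KO. In the other direction, si:ch211-261n11.9 and si:ch211-261n11.8 were at 0 in all 5 DKO libraries and averaged 0.773 ± 0.332 and 0.662 ± 0.14 CPM in ALDH3A1KO. ccdc134 (ENSDARG00000103285) averaged 1.34 CPM in DKO and 0.0326 CPM in ALDH3A1KO.

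Genes beside glo1 in the order of RefSeq assembly GRCz12tu, on chromosome 13, were also counted. Of the 40 nearest placed genes that were tested, 10 were called (25%), 6 higher and 4 lower in DKO. On that chromosome 23.2% of 595 placed genes were called, against 18.5% of 14564 placed genes in all. Over the 25 chromosomes the share ran from 15.2% to 24.4%.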
